A study of Mus musculus with 12 samples.

Results

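Ketone body synthesis and transport was followed through 8 genes, chosen by name from the 56748 genes of the count table, and all 8 were found there. They were Acat1, Bdh1 and Bdh2 of ketone body synthesis and interconversion, Oxct1 and Aacs of ketone body use, and the monocarboxylate transporter genes Slc16a1, Slc16a6 and Slc16a7. RNA-seq was run on whole livers of mice fasted for 24 h, with 4 livers in each of 3 groups. WT livers came from controls carrying floxed alleles of Cpt1a, Cpt1b and Cpt2 by the deposited labels, while the study describes the controls for RT-qPCR of its double knockout as floxed for Atf3 and Cpt2. Any effect of a different control line cannot be told apart from genotype in values against WT. SKO livers were labelled as liver-specific knockouts of Cpt2 (carnitine palmitoyltransferase 2, needed for mitochondrial oxidation of long-chain fatty acids), and DKO livers as knockouts of both Atf3 (a stress-induced transcription factor) and Cpt2. Both deletions were made with Cre recombinase under the albumin promoter, which is active in hepatocytes, and which other liver cells were recombined was not tested. The labels give no age, and the study describes the mice as male and of C57BL6 lines. In RNA of a whole organ, fewer cells of a type and less RNA per cell cannot be told apart.

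In fasting, liver mitochondria break fatty acids down to acetyl-CoA and turn it into ketone bodies. A thiolase (ACAT1) joins acetyl-CoA units, further enzymes make acetoacetate, and BDH1 reduces acetoacetate to β-hydroxybutyrate. Proton-coupled transporters of the SLC16 family carry both out of the cell to other organs, where OXCT1 starts their oxidation. Hepatocytes normally hold little OXCT1 and so export ketone bodies rather than burn them.

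The 12 libraries held 14710304 to 20030055 counts. Cpt2 was at 3658 to 4543 counts in WT, 1725 to 3098 in SKO livers and 1876 to 2468 in DKO livers, below every WT liver in both KO groups. Atf3 was at 17 to 39 counts in WT and 259 to 1056 in SKO livers, and at 164, 177, 265 and 5 counts in DKO replicates 1 to 4. DKO replicates 1 to 3 were thus above every WT liver for Atf3, against the direction of their label. In CPM (read counts scaled to library size with TMM factors), DKO livers were at most at 13.5 and SKO livers at least at 14.5. By RT-qPCR, the study reports that the rise of Atf3 after loss of Cpt2 was blocked in double knockouts of both sexes. Counts per gene can hold reads from outside the deleted part of Atf3 and from cells without Cre, so they do not check this deletion, and DKO is used here as the label of these libraries. Although the mice are described as male, SKO replicate 3 and DKO replicate 4 had 18063 and 20855 Xist counts and at most 1 count on any of 4 genes of the Y chromosome (Uty, Kdm5d, Ddx3y and Eif2s3y). DKO replicate 4 also stood apart from its group over all genes, with a chi-square per degree of freedom of 220 to 261 against the other DKO livers, which differed from each other by 31.1 to 37.4. Both livers stayed in the comparisons, and values without them are given beside the results they touch. Hepatocyte genes (7 measured) summed to 77506 to 96036 CPM in WT, 41819 to 69746 in SKO livers and 43837 to 99110 in DKO livers, and none was at 0. Most of this sum was Alb, with a mean of 58977 of 87406 CPM in WT, 31906 of 54581 in SKO and 38492 of 61432 in DKO livers.

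The promoters of a pair of genes are shown because Slc16a1 changed the most clearly of the 8 genes and Bdh2 was the gene that fell. Slc16a1 lies on chromosome 3 from 104638668 to 104658462 and Bdh2 on chromosome 3 from 135281221 to 135304426, both on the + strand (GRCm38). The sequences run from 250 bases before to 50 bases after the gene start in RefSeq (GRCm38.p6), at chr3:104638414-104638713 for Slc16a1 and chr3:135280971-135281270 for Bdh2, both on the + strand. RefSeq promoters were matched for 5 of the 8 genes (Aacs, Bdh1, Bdh2, Oxct1 and Slc16a1). Capitals mark an E box, CACGTG, which reads the same on both strands.
Slc16a1 promoter: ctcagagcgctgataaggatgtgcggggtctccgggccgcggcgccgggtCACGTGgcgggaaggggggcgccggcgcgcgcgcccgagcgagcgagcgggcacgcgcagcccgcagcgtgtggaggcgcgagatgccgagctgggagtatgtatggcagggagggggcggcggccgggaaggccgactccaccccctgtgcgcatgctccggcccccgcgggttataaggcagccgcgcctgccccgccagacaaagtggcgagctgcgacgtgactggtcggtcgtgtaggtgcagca
Bdh2 promoter: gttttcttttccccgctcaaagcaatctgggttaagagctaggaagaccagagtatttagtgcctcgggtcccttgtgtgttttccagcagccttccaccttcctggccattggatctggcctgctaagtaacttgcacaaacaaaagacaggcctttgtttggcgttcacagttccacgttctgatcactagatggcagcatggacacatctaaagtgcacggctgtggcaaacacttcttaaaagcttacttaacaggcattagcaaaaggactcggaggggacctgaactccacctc
The Slc16a1 window was 73.7% G and C with 42 CpG dinucleotides, and the Bdh2 window was 48.7% G and C with 6, beside medians of 52.7% and 7 over 32851 promoters of this length. The E box began 200 bases before the Slc16a1 start and was found in no other matched member, against 7.15% of all promoters. A search of both strands for TGACGTCA (the binding motif of the CREB and ATF family, in 1.79% of promoters), TGACTCA (AP-1, 5.20%) and AGGTCA (the core letters bound by many nuclear receptors, 16.3%) gave no match in the promoters of the 5 genes. These matches are of letters only and say nothing about binding.

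Against WT, 2 of the 3 transporter genes were higher in both KO groups, while Acat1 and Bdh1, the abundant synthesis genes, did not pass the test in either. Slc16a1, which encodes MCT1, was 2.35-fold higher in SKO and 2.41-fold higher in DKO livers. Slc16a6 was 2.28-fold and 2.59-fold higher, with overlapping livers, and Bdh2 was 3.70-fold lower in SKO. The Slc16a6 calls lay near the threshold and its level is uncertain, as given below. In SKO against WT, 2 of the 8 genes rose (Slc16a1 and Slc16a6), 1 fell (Bdh2) and 5 did not pass an adjusted p of 0.05 (edgeR quasi-likelihood test, Benjamini-Hochberg over all genes tested). Over all 14261 genes tested, 32.1% passed, 16.7% higher and 15.4% lower, so the 3 of 8 genes called in SKO was near that background. In DKO against WT, 2 of the 8 genes rose and 6 did not pass, beside 10.5% of the 14448 genes tested, 6.06% higher and 4.39% lower. The median log2 fold change of the 8 genes was 0.070 in SKO livers and 0.081 in DKO, close to 0.031 and 0.030 over all genes tested. Because both comparisons use the same 4 WT livers, their values are set side by side and not counted as separate evidence.

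**Figure D1:**
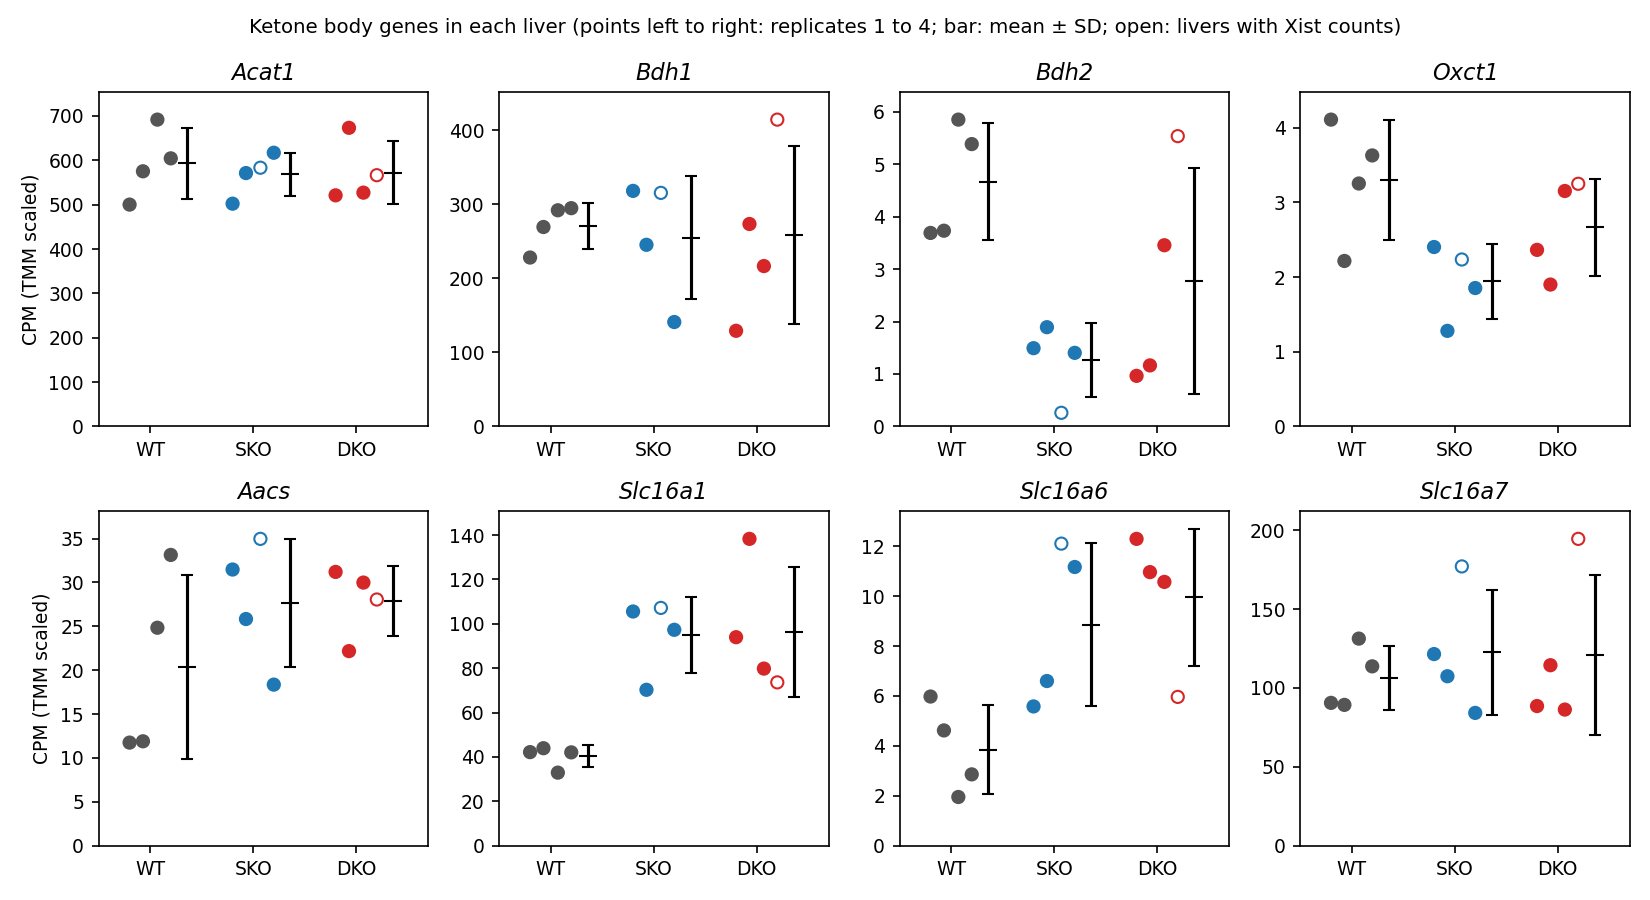
CPM of the 8 genes (vertical axes, each from 0) in WT, SKO and DKO livers, with 1 point per liver, replicates 1 to 4 from left to right, bars at the mean ± SD (n = 4) and open points for SKO replicate 3 and DKO replicate 4. All Slc16a1 points of both KO groups lie above 70 CPM and all WT points below 44, while Acat1 and Bdh1 overlap between groups.

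Acat1 encodes the mitochondrial acetoacetyl-CoA thiolase that opens the pathway. It was at 500.2, 575, 692 and 604 CPM in WT replicates 1 to 4, at 502, 571, 583 and 617 CPM in SKO livers, and at 521, 673, 527 and 566 CPM in DKO livers. The 3 groups overlapped over almost their whole ranges. The log2 fold change was −0.06 ± 0.14 (SE) in SKO (adjusted p = 0.767, edgeR) and −0.04 ± 0.15 in DKO (adjusted p = 0.885). With 95% intervals from −0.36 to 0.24 and from −0.37 to 0.29, a change as large as that of Slc16a1 lay outside both.

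Bdh1 encodes the mitochondrial dehydrogenase that makes β-hydroxybutyrate. It was at 228, 269, 292 and 295 CPM in WT livers, at 318, 245, 316 and 141 CPM in SKO livers, and at 129, 274, 217 and 415 CPM in DKO livers. WT livers lay close together, while SKO replicate 4 and DKO replicates 1 and 3 were below every WT liver, and SKO replicates 1 and 3 and DKO replicate 4 above. The means were 271 ± 30.8 CPM in WT livers, 255 ± 83.2 in SKO livers and 259 ± 120 in DKO (SD, n = 4), and the DKO SD was 72.7 CPM without DKO replicate 4. The difference in scatter was not tested. Neither log2 fold change passed (−0.09 ± 0.22, adjusted p = 0.797 in SKO and −0.05 ± 0.30, adjusted p = 0.924 in DKO, edgeR). The DKO value was −0.39 without DKO replicate 4 and 0.17 without DKO replicate 1, and the SKO value was 0.12 without SKO replicate 4.

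Bdh2 encodes another, cytosolic hydroxybutyrate dehydrogenase. It was a low gene, at 3.69, 3.73, 5.85 and 5.39 CPM in WT livers, 1.49, 1.89, 0.260 and 1.40 CPM in SKO livers, and 0.965, 1.16, 3.46 and 5.54 CPM in DKO livers. Every SKO liver was below every WT liver, whereas DKO replicates 1 and 2 lay among the SKO values, replicate 3 between the groups and replicate 4 among the WT values. These CPM rest on 59 to 98 counts in WT, 5 to 37 in SKO livers and 19 to 104 in DKO livers, and the 5 counts of SKO replicate 3 have an exact 95% Poisson interval of 1.62 to 11.7 counts. Bdh2 fell in SKO by 1.89 on the log2 scale (SE 0.43, 95% interval −2.82 to −0.95, adjusted p = 0.00574, edgeR), and it passed in each of the 13 alternative fits. In DKO the log2 fold change was −0.72 ± 0.51 and did not pass (adjusted p = 0.374). Without DKO replicate 4 it was −1.30 and passed (adjusted p = 0.0315, edgeR). In that comparison 35.9% of all genes tested passed.

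Oxct1 encodes the CoA transferase that starts ketone body oxidation outside the liver. It was at 4.11, 2.21, 3.25 and 3.63 CPM in WT livers, 2.40, 1.28, 2.23 and 1.85 CPM in SKO livers, and 2.36, 1.90, 3.15 and 3.25 CPM in DKO livers. Only WT replicate 2 lay among the SKO livers, and the DKO livers spread over both groups. On 25 to 79 counts a liver, the log2 fold change was −0.78 ± 0.29 in SKO (adjusted p = 0.0574, edgeR) and −0.29 ± 0.28 in DKO (adjusted p = 0.512). The SKO value sat at the threshold. It passed in DESeq2 (adjusted p = 0.0440), with the replicate number as a block (adjusted p = 0.04997) and without WT replicate 2 (adjusted p = 0.0362, edgeR), and in none of the other 10 alternative fits. Cells other than hepatocytes also express Oxct1, and the part of the marker lists given at the end in its values was not tested.

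Aacs encodes the cytosolic synthetase that returns acetoacetate to acetoacetyl-CoA for lipid synthesis. It was at 11.7, 11.9, 24.8 and 33.1 CPM in WT livers, at 31.5, 25.8, 35.0 and 18.4 CPM in SKO livers, and at 31.2, 22.2, 30.0 and 28.1 CPM in DKO livers. WT replicates 1 and 2 were the lowest of the 12 livers, and WT replicates 3 and 4 lay among the KO livers. The log2 fold change was 0.44 ± 0.32 in SKO (adjusted p = 0.338, edgeR) and 0.47 ± 0.32 in DKO (adjusted p = 0.364), neither past the WT spread.

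Slc16a1 encodes MCT1, a transporter of lactate, pyruvate and ketone bodies found in most tissues. It was at 42.2, 43.9, 32.9 and 42.0 CPM in WT livers, at 106, 70.2, 107 and 97.3 CPM in SKO livers, and at 94.0, 138, 79.8 and 73.6 CPM in DKO livers. Every KO liver exceeded every WT liver, and the lowest KO liver (SKO replicate 2) was still above the highest WT liver (replicate 2). The means were 40.3 ± 4.98, 95.1 ± 17.1 and 96.4 ± 29.2 CPM (SD, n = 4). Slc16a1 rose by 1.24 ± 0.16 on the log2 scale in SKO (95% interval 0.89 to 1.58, adjusted p = 0.000137, edgeR) and by 1.27 ± 0.20 in DKO (95% interval 0.83 to 1.71, adjusted p = 0.00973). It passed in each of the 13 alternative fits of both comparisons, with adjusted p of at most 0.00140 in SKO livers and 0.0417 in DKO. The counts behind these values, 506 to 2257 a liver, leave little counting error.

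Slc16a6 encodes MCT7, known as an exporter of β-hydroxybutyrate from hepatocytes. It was at 5.98, 4.62, 1.95 and 2.86 CPM in WT livers, at 5.58, 6.60, 12.1 and 11.2 CPM in SKO livers, and at 12.3, 11.0, 10.6 and 5.96 CPM in DKO livers. SKO replicate 1 and DKO replicate 4 lay just below the highest WT liver, and the other KO livers were above all 4 WT livers. Slc16a6 rose by 1.19 ± 0.35 on the log2 scale in SKO (adjusted p = 0.0235, edgeR) and by 1.37 ± 0.35 in DKO (adjusted p = 0.0399). The direction held in every fit that left out 1 liver, at 0.97 to 1.48 in SKO and 1.15 to 1.65 in DKO on the log2 scale, while the adjusted p lay near the threshold. In SKO it did not pass without WT replicate 3 (adjusted p = 0.0529), WT replicate 4 (0.0682), SKO replicate 3 (0.0555) or SKO replicate 4 (0.0641), nor with the replicate block (0.0501, edgeR). In DKO it was lost in 7 of the 8 fits that left out 1 liver (adjusted p = 0.0548 to 0.108, edgeR), fits in which 1.63% to 4.81% of all genes passed against 10.5% with all livers, and without DKO replicate 4 the adjusted p was 0.00263. Slc16a6 also shares its locus with 2 protein-coding genes on the opposite strand, and no source used here states that counting used strand. One of them, Arsg (arylsulfatase G), had 395 to 750 counts in WT, 1006 to 1457 in SKO livers and 434 to 1856 in DKO livers, beside 30 to 255 for Slc16a6. The other, Amz2, had 203 to 447 counts a liver. These are counts of the whole genes. Each overlaps only an end of Slc16a6, Arsg over a shorter stretch than Amz2. Arsg also rose in SKO (log2 fold change 0.98 ± 0.18, adjusted p = 0.00180, edgeR), with 1.16 ± 0.39 in DKO (adjusted p = 0.0833). Amz2 rose in SKO too (0.54 ± 0.15, adjusted p = 0.0173, edgeR). Reads from these genes and from Slc16a6 cannot be told apart where they overlap without strand, so the Slc16a6 level is uncertain.

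Slc16a7 encodes MCT2, a transporter with high affinity for monocarboxylates. It was at 90.5, 89.2, 131 and 114 CPM in WT livers, at 121, 107, 177 and 84.1 CPM in SKO livers, and at 88.5, 114, 86.3 and 194 CPM in DKO livers. SKO replicate 3 and DKO replicate 4, the 2 livers with Xist counts, were the highest of the 12, and the other KO livers lay within the WT range or just below it. Neither comparison passed (log2 fold change 0.20 ± 0.21, adjusted p = 0.514 in SKO livers and 0.20 ± 0.27, adjusted p = 0.653 in DKO, edgeR). Leaving out SKO replicate 3 gave −0.02 in SKO, and leaving out DKO replicate 4 gave −0.14 in DKO, so the positive values rested on those livers.

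**Figure D2:**
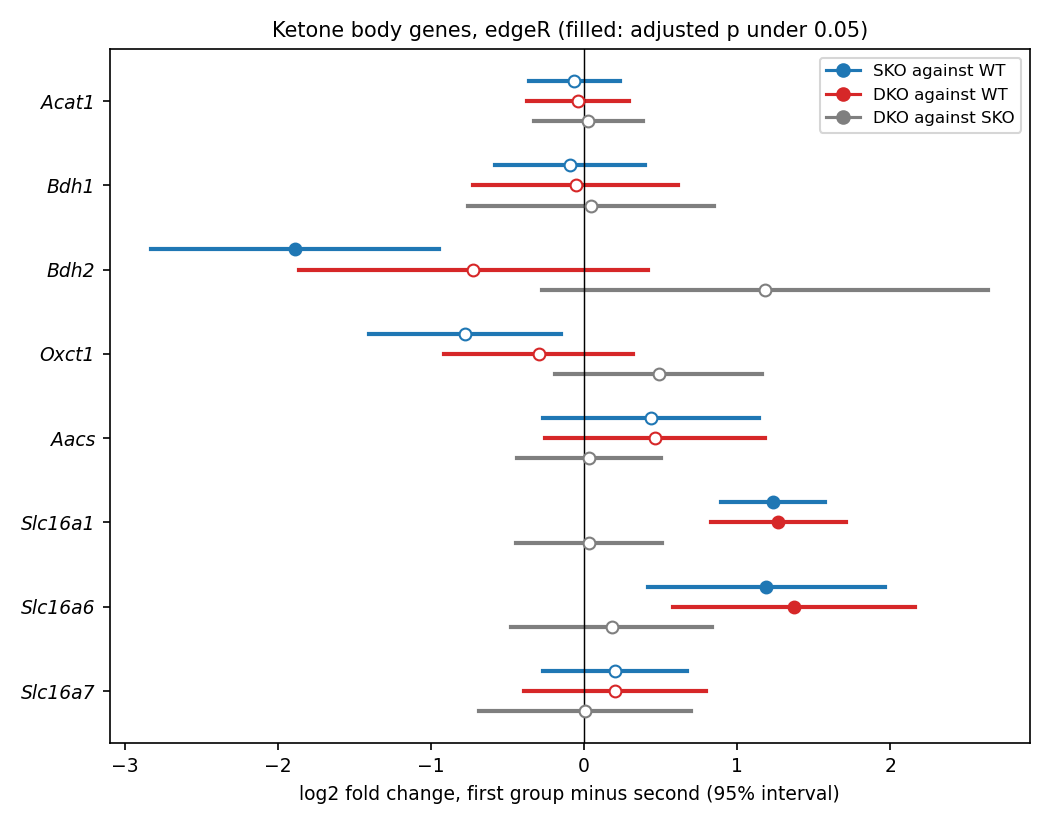
Log2 fold changes of the 8 genes (horizontal axis, points with 95% intervals) in SKO against WT, DKO against WT and DKO against SKO, with filled points for an adjusted p under 0.05 in edgeR. Slc16a1 and Slc16a6 are filled to the right of 0 in both comparisons with WT, Bdh2 is filled to the left in SKO against WT only, and no point of DKO against SKO is filled.

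The comparison of DKO with SKO asks, by the labels, what deleting Atf3 adds to deleting Cpt2. Atf3 itself was lower in CPM in each DKO liver than in each SKO liver, with a log2 fold change of −1.91 ± 0.73 that did not pass (adjusted p = 0.701, edgeR), and its CPM were above every WT liver in 3 of 4 DKO livers. None of the 8 genes passed it in edgeR, 0 had an unadjusted p under 0.05, and 0 passed in DESeq2. Over all 14363 genes tested, 0.0209% passed in edgeR (3 genes), 6.49% had an unadjusted p under 0.05, and 91 genes passed in DESeq2. The median log2 fold change was 0.040 for the 8 genes and 0.009 for all genes tested. Slc16a1 differed by 0.03 ± 0.22 on the log2 scale, with a 95% interval of −0.44 to 0.51 that leaves out a change as large as its rise over WT. For Acat1 the interval was −0.33 to 0.38, for Aacs −0.44 to 0.51, for Slc16a6 −0.48 to 0.84, for Slc16a7 −0.68 to 0.70 and for Bdh1 −0.76 to 0.85. Oxct1 and Bdh2 had the largest values, 0.49 (−0.19 to 1.16) and 1.18 (−0.27 to 2.64), and did not pass (adjusted p = 0.851 and 0.808, edgeR). The Bdh2 interval holds both no change and a return to the WT level. The Bdh2 value was 0.58 without DKO replicate 4, 0.83 without SKO replicate 3 and 0.24 without both. In the fit without both livers, Slc16a6 had the largest value at 0.55, Oxct1 was at 0.45, Slc16a1 at 0.20, Aacs at 0.16, Acat1 at 0.03, Slc16a7 at −0.11 and Bdh1 at −0.18, again with 0 of the 8 genes called, beside 0.146% of all genes tested.

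Levels of different genes were compared per length, as RPKM (CPM divided by the gene length in kilobases). In WT livers Acat1 was the highest at 158 ± 21.1 RPKM (SD, n = 4), followed by Bdh1 at 69.7 ± 7.93, and their livers did not overlap with each other or with any other gene of the set. Slc16a1 (9.10 ± 1.12), Slc16a7 (8.97 ± 1.70) and Aacs (5.30 ± 2.72 RPKM) formed a middle group in which neighbours overlapped. Bdh2 (1.10 ± 0.26), Oxct1 (0.892 ± 0.217) and Slc16a6 (0.789 ± 0.368 RPKM) were the lowest, and neighbours overlapped there too. In SKO livers the order of the top 5 was the same, but Slc16a1 at 21.5 ± 3.86 RPKM no longer overlapped with Slc16a7 at 10.3 ± 3.33. In DKO livers Slc16a1 was at 21.8 ± 6.59 and Slc16a7 at 10.2 ± 4.28 RPKM, with ranges of 16.6 to 31.2 and 7.29 to 16.4. At the low end Slc16a6 moved above Oxct1 in both KO groups, at 1.82 ± 0.67 against 0.525 ± 0.135 RPKM in SKO and 2.04 ± 0.56 against 0.720 ± 0.175 RPKM in DKO livers, without overlap. The place of Slc16a6 in these orders is uncertain, because reads of Arsg and Amz2 may be counted in it. Bdh2 had the lowest mean of the 8 genes in both KO groups, at 0.297 ± 0.165 RPKM in SKO and 0.654 ± 0.508 RPKM in DKO livers, and overlapped with Oxct1 in both.

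**Figure D3:**
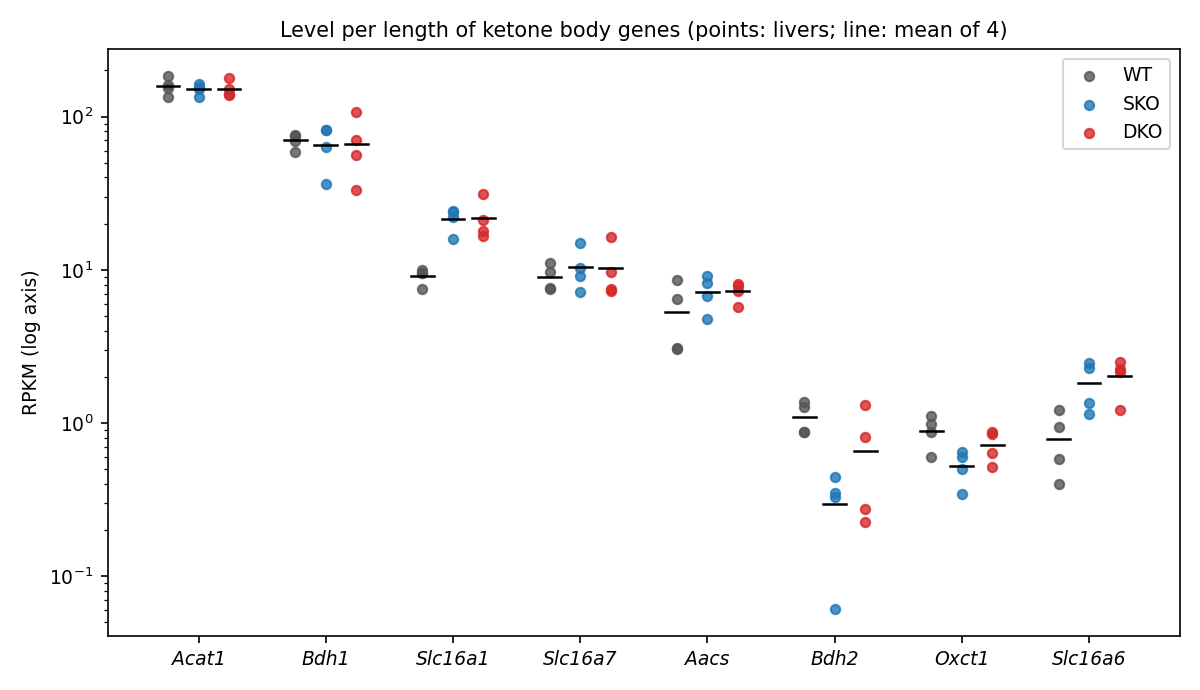
RPKM of the 8 genes on a log axis, ordered by the WT mean, with 1 point per liver and a line at the mean of 4 livers for WT, SKO and DKO. Acat1 and Bdh1 stand above the rest in each group, Slc16a1 parts from Slc16a7 in SKO and DKO livers, and 1 SKO liver lies far below the others for Bdh2.

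Across the 12 livers, Slc16a1 and Slc16a6 had the highest correlation of any pair of the set (Pearson r = 0.836 on log2 CPM, n = 12 livers). Bdh2 ran opposite to Slc16a1 (r = −0.763), and Bdh1 ran with Slc16a7 (r = 0.777). These are descriptions over livers that fall into genotype groups and share their library sizes. Among 9784 genes with a mean of at least 5 CPM, the 5 whose pattern was most like that of Slc16a1 were Elovl5 (r = 0.970), Pde4d (0.967), Adra2a (0.963), Ppp2r1b (0.961) and Denn2b (0.955).

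A list of 5 other synthesis-related genes was followed (Acaa2, Acat2, Acat3, Hmgcs1 and Hmgcll1), of which 4 could be tested. The list is not limited to enzymes of ketone body synthesis, so its changes are not read as changes of that pathway. In SKO 0 rose and 2 fell, beside the 32.1% of all genes that passed, and in DKO 0 passed in either direction. The genes that fell in SKO were Acat2 and Acat3, cytosolic thiolases that are close paralogs, so reads could be split between them. Acat3 was at 140, 144, 124 and 140 CPM in WT livers, 17.4, 11.4, 21.6 and 8.25 CPM in SKO livers, and 8.34, 18.9, 14.9 and 152 CPM in DKO livers. DKO replicate 4 alone among the KO livers was at the WT level. Acat3 fell in SKO by 3.23 on the log2 scale (adjusted p = 7.1e-06, edgeR) and Acat2 by 0.86 (adjusted p = 0.00112), the latter not passing in a single fit over all 12 livers (adjusted p = 0.0999). Without DKO replicate 4, 3 of the 4 genes tested passed as lower in DKO (Acat2, Acat3 and Acaa2), beside 35.9% of all genes, and without SKO replicate 3, 3 passed as lower in SKO (Hmgcs1 in addition), beside 32.5% of all genes. Of the other CoA transferase genes, Oxct2a and Oxct2b, neither had enough counts to be tested.

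Of 14 other monocarboxylate transport genes, 10 were tested, 2 rose and 1 fell in SKO, and 1 rose and 1 fell in DKO. Over all genes 32.1% and 10.5% passed, so the 3 of 10 in SKO was near that background. Slc16a13, a transporter gene of the same family, was at 1.69 to 3.79 CPM in WT livers, 4.93 to 9.41 in SKO livers and 4.35 to 8.39 in DKO livers, without overlap. It rose by 1.26 ± 0.28 on the log2 scale in SKO (adjusted p = 0.00513, edgeR) and by 1.21 ± 0.30 in DKO (adjusted p = 0.0354), the latter passing in 5 of 13 alternative fits. Slc16a5 rose in SKO by 1.00 ± 0.21 (adjusted p = 0.00368, edgeR) and was at 0.68 ± 0.20 in DKO (adjusted p = 0.0589). Slc16a12 fell in DKO by 1.12 ± 0.22 (adjusted p = 0.0187, edgeR), a call lost without WT replicate 4 (adjusted p = 0.0573) and without DKO replicate 3 (0.0630). Bsg encodes basigin, the chaperone that brings MCT1 to the membrane. It fell in SKO by 0.40 ± 0.14 on the log2 scale (adjusted p = 0.0400, edgeR), a call kept in 4 of 13 alternative fits, with −0.23 ± 0.17 in DKO (adjusted p = 0.384).

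Among 10 regulators of hepatic ketogenesis, 1 rose and 3 fell in SKO, and 1 rose and 2 fell in DKO, beside 32.1% and 10.5% of all genes. Fgf21, the gene of a fasting hormone, was at 2.50, 3.35, 5.66 and 1.43 CPM in WT livers, 50.2, 70.9, 62.8 and 105 CPM in SKO livers, and 81.0, 147, 173 and 24.8 CPM in DKO livers. All KO livers were above all WT livers, and DKO replicate 4 was the lowest of them. Fgf21 rose 22.6-fold in SKO (adjusted p = 8.1e-06, edgeR) and 33.4-fold in DKO (adjusted p = 0.00603). Foxa2, a transcription factor active in fasting, fell by 0.73 ± 0.23 on the log2 scale in SKO (adjusted p = 0.0289, edgeR) and by 0.69 ± 0.15 in DKO (adjusted p = 0.0226). The insulin receptor gene Insr fell by 0.58 ± 0.17 and 0.50 ± 0.13 (adjusted p = 0.0205 and 0.0443, edgeR), and Sirt3, a mitochondrial deacetylase, fell in SKO by 0.47 ± 0.13 (adjusted p = 0.0164). Of 13 alternative fits, the Foxa2 call stood in 8 and 6, the Insr call in 11 and 3, and the Sirt3 and Fgf21 calls in 13 each. Ppara, the nuclear receptor that drives ketogenic genes in fasting, was at 0.23 ± 0.22 in SKO (adjusted p = 0.476, edgeR) and −0.26 ± 0.19 in DKO (adjusted p = 0.406). Without DKO replicate 4, where more of all genes passed as given for Bdh2, 2 regulators rose and 3 fell in DKO, and 2 transport genes rose and 3 fell. Without SKO replicate 3, Ppargc1a took the place of Foxa2 among the 3 regulators that fell in SKO, and Slc16a10 fell beside Bsg among the transport genes. In DKO against SKO none of these 3 lists had a gene that passed.

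**Figure D4:**
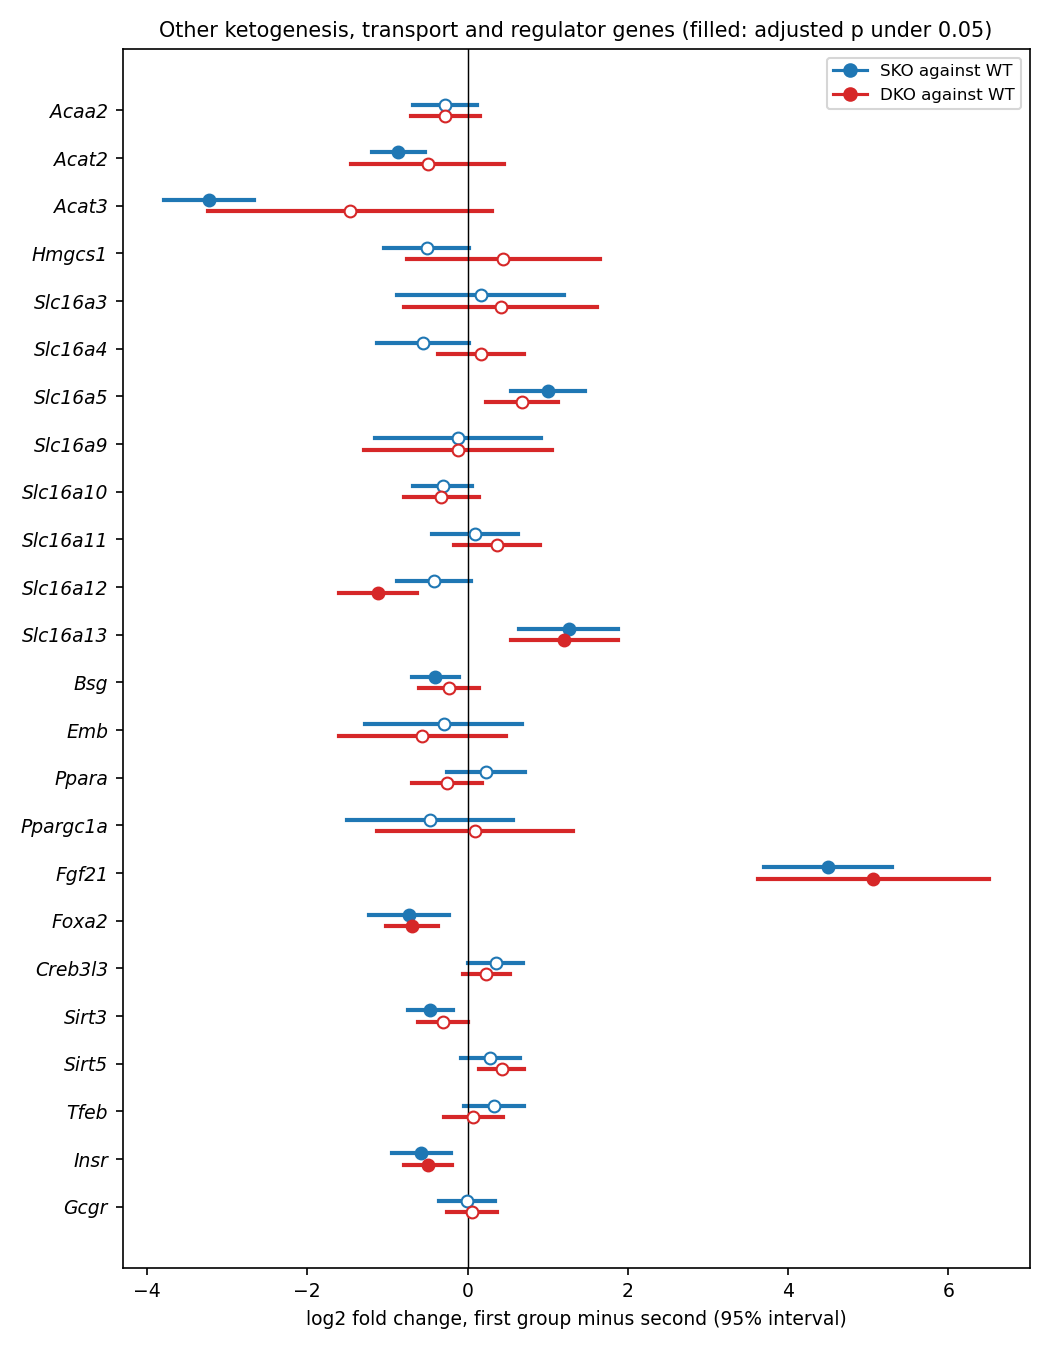
Log2 fold changes with 95% intervals (horizontal axis) of the 24 other genes tested from the synthesis-related, transport and regulator lists. Comparisons are SKO against WT and DKO against WT, with filled points for an adjusted p under 0.05 in edgeR. Fgf21 lies far to the right in both comparisons and Acat3 far to the left in SKO with a wide interval in DKO.

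Markers of cell types were measured beside these results, with 32.1% of all genes passing in SKO and 10.5% in DKO. Of 7 hepatocyte genes, 4 fell in SKO (Alb, Ttr, Fgb and Ahsg) and 0 passed in DKO. Without DKO replicate 4, these same 4 genes passed as lower in DKO too, in a fit where 35.9% of all genes passed. The other hepatocyte genes, Apoa1, Cps1 and Hnf4a, were at log2 fold changes of 0.23, −0.03 and −0.07 in SKO and did not pass. Of the cholangiocyte list of 6, 4 were tested. Of these, 2 fell in SKO (Sox9 and Spp1) and 1 in DKO (Sox9, by 1.71 on the log2 scale, adjusted p = 0.0195, edgeR). Without DKO replicate 4, when 5 were tested, both passed as lower in DKO. The sum of the list was 27.9 to 33.3 CPM in WT livers, 7.41 to 14.5 in SKO livers and 9.60 to 31.3 in DKO livers, with Cftr at 3 counts or fewer in every liver. Almost all of the adipocyte sum was Cidec, a lipid droplet gene, with a mean of 22.8 of 22.9 CPM in WT livers and 462 of 462 CPM in SKO livers. The adipocyte list summed to 18.9 to 28.3 CPM in WT livers, 327 to 527 in SKO livers and 32.5 to 441 in DKO livers. Cidec was the one gene of 4 that could be tested and rose in both KO groups, while the defining marker Adipoq had means of 0.082 CPM in WT livers, 0.026 in SKO livers and 0.040 in DKO livers, and Lep was at 0 in all livers. Plin1, the remaining gene, had 0 counts in all WT livers, 3 to 10 in SKO livers and 0 to 3 in DKO livers. Stellate cell genes summed to 177 to 200 CPM in WT livers, 234 to 326 in SKO livers and 215 to 278 in DKO livers, with 1 of 8 higher in SKO (Dcn) and 0 passing in DKO, where Dcn passed as higher without DKO replicate 4. Most of this sum was Dcn, with a mean of 116 of 190 CPM in WT, 178 of 265 in SKO and 156 of 245 in DKO livers. Of the 8 stellate genes, 5 had higher and 3 lower values in SKO than in WT. Macrophage genes summed to 163 to 331, 160 to 355 and 103 to 343 CPM, with 1 of 8 higher in SKO (Cd68) and 1 lower in DKO (Marco). Without DKO replicate 4, 6 macrophage genes passed as lower in DKO (Clec4f, Csf1r, Lyz2, Marco, Timd4 and Vsig4) and Cd68 as higher, with a median log2 fold change of −1.08 over the list, and without SKO replicate 3 Marco passed as lower in SKO as well. Erythroid genes, 5 tested, summed to 113 to 249, 156 to 533 and 127 to 713 CPM. In SKO 2 were higher (Hba-a1 and Hbb-bs) and 1 lower (Alas2), and in DKO 1 was lower (Alas2). Without SKO replicate 3, 4 erythroid genes passed as higher in SKO (Hba-a1, Hba-a2, Hbb-bs and Hbb-bt) and Alas2 as lower, beside 32.5% of all genes. Of 7 endothelial genes 0 passed in either comparison with WT, at sums of 159 to 352 CPM in WT livers, 207 to 280 in SKO livers and 189 to 273 in DKO livers. Of 7 lymphocyte genes 1 was tested and did not pass, at a sum of at most 5.59 CPM. The part of these markers in the values of the ketone body genes was not tested.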

How the data were processed

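RNA-seq was measured in 12 livers, grouped by the genotype in their labels, with 1 sample per liver, and the labels do not say whether mice shared a litter or cage. The tables deposited by the authors hold unnormalized read counts of 56748 Ensembl genes, and the same genes as FPKM (fragments scaled by gene length and depth), used here only to check the order of levels, which it left unchanged. The submitters' processing notes name HISAT2 and the builds GRCm38 and mm10. Only 2.85% of the gene starts in the deposited table equal those of the GRCm38 annotation, so coordinates printed here come from GENCODE vM21 by gene ID, and strand use in counting was not given in the sources used here. Deposited tables of the authors' own fold changes and p-values between groups were not used.

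Each pair of groups was compared with edgeR 4.0.16 (quasi-likelihood test, TMM, filterByExpr, limma 3.58.1, R 4.3.3), with two-sided p-values adjusted by Benjamini-Hochberg over all genes tested and a threshold of 0.05. Fits with 1 liver left out assume that a group's livers vary alike. Errors beside log2 fold changes are standard errors. CPM and RPKM were scaled by TMM over all 12 livers, with the gene length of the count table, and log2 CPM used a prior count of 2. Alternatives were DESeq2 1.42.0 (Wald test), RLE factors, no filter, the replicate number as a block, 1 fit over 12 livers, each liver left out in turn and no livers with Xist counts. Alternatives for the genes outside the set of 8 were added after seeing the data. The code was tested on simulated data. Counts per liver were 14710304 to 20030055 (median 17908507), where 3 counts are at most 0.204 CPM, and intervals on counts cover counting error only. No library was a copy of another of its group (smallest chi-square per degree of freedom 20.6).

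All 8 genes are named, with Cpt2, Atf3, sex-linked and marker genes as checks, any gene of the pathway lists except a few that are not reported here, and the 5 genes most like the member with the smallest p in SKO against WT. Arsg and Amz2 were named after their values were seen. The 8 genes and the lists were chosen with earlier results of these data known.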

Additional observations from a re-analysis of the deposited data

Results flagged for a closer look

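The Slc16a1 level of WT replicate 3, 32.9 CPM, lay apart from the other WT livers at 42.0 to 43.9 CPM. Its gap to the nearest of them was 0.830 of the range of the group, just past the critical value of Dixon's test for 4 samples. This was 1 of 24 groups tested over the 8 genes, where 1.2 are expected by chance. WT replicate 3 was also the lowest WT liver for Slc16a6. Slc16a1 passed in both comparisons with WT without it.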

How the results depend on the processing

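Slc16a1 in both comparisons with WT and Bdh2 in SKO kept their direction and their call in every alternative run. When 1 liver was left out, the number of the 8 genes called was 2 to 4 in SKO against WT, beside 24.8% to 32.5% of all genes, and 0 in DKO against SKO, and in DKO against WT it ranged from 1 to 3, where the loss was that of Slc16a6 and the gain, without DKO replicate 4, that of Bdh2. Values near 0 changed sign. In DKO against SKO, Slc16a7 was −0.017 on the log2 scale in DESeq2, −0.0026 with RLE factors, −0.029 without the filter, −0.039 with the replicate block and −0.11 without the livers with Xist counts, Acat1 was −0.00085 without the filter, and Bdh1 was −0.033 with the replicate block and −0.18 without the livers with Xist counts. With 1 liver left out, the log2 fold changes in SKO against WT ranged from −0.15 to 0.0051 for Acat1, −0.21 to 0.12 for Bdh1 and −0.024 to 0.35 for Slc16a7. In DKO against WT they ranged from −0.13 to 0.038 for Acat1, −0.39 to 0.17 for Bdh1 and −0.14 to 0.33 for Slc16a7. In DKO against SKO they ranged from −0.044 to 0.071 for Acat1, −0.30 to 0.27 for Bdh1, −0.13 to 0.17 for Aacs, −0.17 to 0.13 for Slc16a1 and −0.34 to 0.24 for Slc16a7. The replicate numbers did not pair the livers (same-numbered deviations correlated at −0.43 to 0.16, and 1, 2 and 0 of 8 livers correlated best with their own number in the 3 comparisons). The replicate block kept the calls of Bdh2 and Slc16a1 in SKO against WT and called Oxct1 in place of Slc16a6. It kept the calls of Slc16a1 and Slc16a6 in DKO against WT, where it called 691 of all genes, and it called 0 of all genes in DKO against SKO. Of all genes, DKO against WT called 1510, but 2509 in DESeq2, 244 without WT replicate 2 and 5253 without DKO replicate 4. DKO against SKO called 3, but 91 in DESeq2, 35 without the filter, 21 without the livers with Xist counts and 0 to 15 with 1 liver left out. The causes were not tested. Counts of 5 to 104 for Bdh2, 25 to 79 for Oxct1 and 30 to 255 for Slc16a6 limit the precision of these 3 genes.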
